A study of Ovis aries with 6 samples.

Results

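The insulin-like growth factor (IGF) system was compared between cultured sheep (Ovis aries) cells from the eye surface and from the skin. Its members were chosen as every gene probe of the array whose gene name is IGF1, IGF2, IGF1R, IGF2R or one of IGFBP1 to IGFBP7, or whose description contains the words insulin-like growth factor. This gave 23 of the 15008 gene probes, for 10 genes of 873 that carry a symbol here: the ligands IGF1 and IGF2, the receptors IGF1R and IGF2R, and the binding proteins IGFBP1 to IGFBP6. No probe was assigned to IGFBP7 by this rule, and it was not analysed here. The groups were 3 samples labelled corneal epithelia cells, from cornea, and 3 samples labelled skin epidermal stem cells, from skin. The series' design text calls each sample a cell line, and the labels give no treatment, breed, sex or age. Total RNA of each sample, taken from adherent cells after trypsin, was labelled with Cy3 and hybridised to 1 single-colour Agilent sheep array. With 3 arrays in each group, their number limits how precise the values are.

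IGF1 and IGF2 are small secreted peptides that promote growth and survival through IGF1R, a receptor tyrosine kinase. IGF2R, also known as the cation-independent mannose phosphate receptor, takes up IGF2 for degradation in lysosomes and also carries newly made lysosomal enzymes. The binding proteins hold the ligands outside the cell, and proteases that cut the binding proteins release them. In skin and in the cornea, IGFs made by stromal cells are known to act on the overlying epithelium.

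All values are log2 of the processed signal minus the 75th percentile of the same array, so 0 is that percentile and a step of 1 is a doubling. Between 72.9% and 75.9% of the gene spots were well above background on the corneal arrays and between 77.5% and 81.6% on the epidermal arrays, and none was saturated. The 6 arrays shared 1 slide and 1 scan. The corneal arrays occupied its row 2 and the epidermal arrays its row 1, and a difference between rows cannot be told apart from one between cell types. The labelled cell types were checked against marker lists, as sums of normalized linear signal with the 75th percentile as 1. Of 13 listed keratinocyte and corneal epithelium markers, KRT3, KRT12, CDH1, EPCAM and ITGA6 had no probe under these names. The 8 with a probe summed to 1.26 to 1.31 in the corneal samples and 0.975 to 1.03 in the epidermal samples. Most of that sum was JUP, a junction protein also found outside epithelia, with 1.02 to 1.06 in the corneal samples and 0.747 to 0.812 in the epidermal samples. JUP and PAX6 were called higher by 0.43 and 0.30 on the log2 scale. KRT15 and DSP were not called and lay near background, each above it on 1 corneal and 3 epidermal arrays. KRT5 and KRT14 were above background on 0 corneal and 2 epidermal arrays, and KRT19 and TP63 on none. The 9 mesenchymal and fibroblast markers with a probe, of 12 listed, summed to 925 to 946 in the corneal samples and 971 to 1198 in the epidermal samples. VIM, DCN and COL1A2 were bright in both groups and not called by their probe of highest mean. For DCN that probe differed by 0.07 and the second one by -0.44. The other 6 markers were called lower in the corneal samples. LUM, PDGFRA and COL1A1 had fitted changes of -0.40, -0.52 and -0.55. FBLN2 was lower by -2.99 (7.92-fold), COL3A1 by -4.51 (22.8-fold), and POSTN, above background on no corneal array, by at least 59.9-fold. Immune markers (CD14 and TYROBP) summed to 14.6 to 15.0 in the corneal samples and 22.6 to 23.6 in the epidermal samples, and 4 endothelial markers to at most 0.025 in the corneal samples and 0.049 in the epidermal samples. Over all tested probes, 26.4% were called higher and 33.4% lower in the corneal samples. In both groups the mesenchymal sum was far above the keratinocyte and corneal epithelium sum. The sums come from different probes, whose signals compare only roughly. With that limit, and with KRT3 and KRT12 unchecked, these markers did not bear out the epithelial labels, which serve below as names of the groups. The part of the marker differences between groups in the results below was not tested, and in such bulk samples fewer cells of a type and less RNA per cell cannot be told apart.

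Each probe is a 60-base oligonucleotide, and each was spotted once. Where the array's gene name was another or none (2 of the IGF1R probes, all of IGF2R and IGFBP6, and 2 of IGFBP1), the probe was assigned from its description. The array's own annotation lists the member probes as unmapped in the genome, so positions are given from the first base of the transcript that the array assigns to the probe. For IGF1R, IGF2R, IGFBP1 and IGFBP3 the probes of the gene are assigned to different transcript records. Their positions therefore do not give their order along the gene. The 23 probes cover 17 separate stretches, because 6 pairs of probes (for IGF2R, IGFBP1, IGFBP2, IGFBP4, IGFBP5 and IGFBP6) are shifted by 1 base and share 59 bases. Such a pair is a repeat measurement of 1 stretch and not a second piece of evidence. No other gene probe of the array shares 20 bases in a row with a member probe on either strand, and no 20 bases are shared between members of different genes. The sequences below, as given in the array files, are those of the ligand probes nearest background, 1 probe of each receptor, the IGFBP3 probe richest in G and C, and the IGFBP5 pair that carries the largest fall among the binding proteins. Capitals mark the base that an overlapping partner lacks.
IGF1, position 520: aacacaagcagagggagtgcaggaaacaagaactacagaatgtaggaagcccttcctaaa
IGF2, position 583: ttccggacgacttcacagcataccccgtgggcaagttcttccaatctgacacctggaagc
IGF1R, position 5: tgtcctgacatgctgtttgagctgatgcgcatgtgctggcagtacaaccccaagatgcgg
IGF2R, position 455: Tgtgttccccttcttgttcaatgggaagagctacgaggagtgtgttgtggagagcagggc
IGFBP3, position 300: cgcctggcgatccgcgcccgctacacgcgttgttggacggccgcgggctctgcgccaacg
IGFBP5, position 305: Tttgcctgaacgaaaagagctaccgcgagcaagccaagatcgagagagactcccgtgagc
IGFBP5, position 306: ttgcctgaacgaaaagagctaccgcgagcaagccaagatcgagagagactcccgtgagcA
The probes span a wide range of base composition. G and C make up 75% of the IGFBP3 probe at position 300 and 26.7% of both IGFBP2 probes, against a median of 43.3% over all gene probes. Only 0.0733% of all gene probes are as rich in G and C as that IGFBP3 probe, and 0.0666% are as poor as the IGFBP2 probe at position 1308.

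IGF2 and IGFBP5 were lower in the corneal samples, while IGFBP2 and IGFBP4 were higher, by fitted differences of 2-fold or more as reported. The IGFBP4 difference lay close to 2-fold, and other processing took either gene below 2-fold, as given for each below. IGF1R, IGFBP3 and IGFBP6 were higher by smaller amounts (1 of the 3 IGF1R probes turned sign without scaling between arrays). IGF2R was lower by a small amount on its overlapping pair, and its separate probe was not called. IGF1 was above background in the epidermal samples alone, and its lower corneal value was no longer called (limma, adjusted p = 0.646) when the background was modelled with normexp without extreme spots. IGFBP1 was above background on at most 2 arrays for any of its probes and was not tested. Of the 23 probes, 20 passed the filter (well above background on 3 or more of the 6 arrays) and were tested with limma among 11742 such probes of the whole array. At an adjusted p under 0.05, 12 were higher and 7 lower in the corneal samples and 1 was not called. Over all tested probes the called share was 59.8%, with 26.4% higher and 33.4% lower, so a call by itself says little about these genes. At a size of at least 2-fold the called share over all probes was 7.76%, with 3.46% higher and 4.30% lower. Of the members, 4 probes (the pairs for IGFBP2 and IGFBP4) were called at least 2-fold higher and 3 (IGF2 at position 1147 and the IGFBP5 pair) at least 2-fold lower. The IGF1 probe and the other IGF2 probe were above background on no corneal array, so they passed the filter only through the epidermal samples, had to differ, and have bounds under 2-fold. Of the 18 member probes above background in both groups, 12 were called higher and 5 lower, against 27.0% and 32.4% of the 11408 such probes of the array. At 2-fold or more, 4 of the 18 were called higher and 3 lower, against 390 and 354 of the 11408. The 3 corneal values lay wholly above or wholly below the 3 epidermal values for 17 of these 18, against 67.6% of such probes and 67.9% of all tested ones. In all these counts both probes of an overlapping pair are counted, though a pair measures 1 stretch, so they overstate the number of separate measurements. The calls of 2-fold or more among the 18 came from 1 stretch each of IGFBP2, IGFBP4, IGF2 and IGFBP5.

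**Figure D1:**
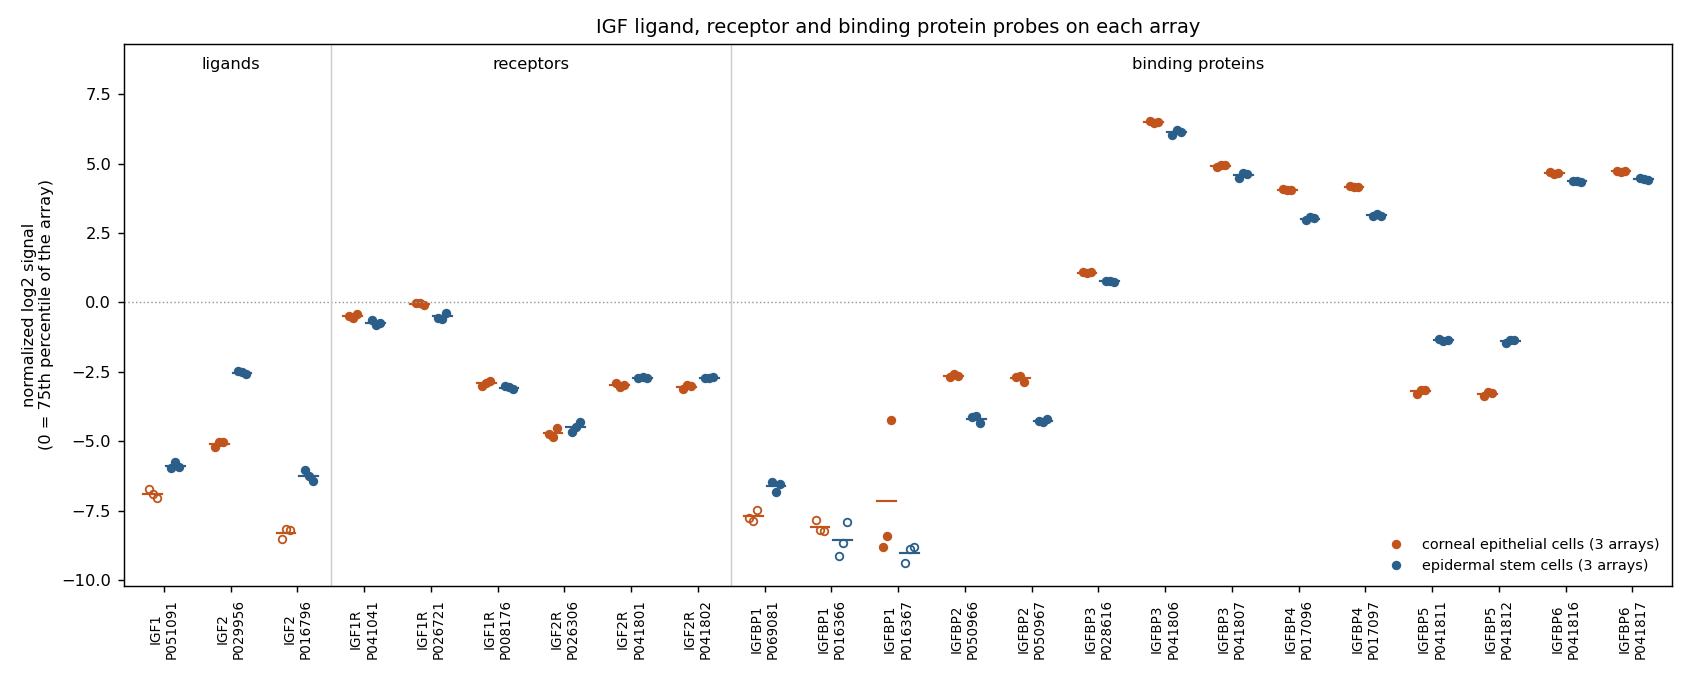
Normalized log2 signal (vertical axis, 0 is the 75th percentile of the array) of each of the 23 probes (horizontal axis, gene and end of the probe name) on each array, corneal in orange left of epidermal in blue, with a bar at each group's mean; open points mark a group in which no array was well above background. The IGF2 and IGFBP5 points lie lower in the corneal samples and the IGFBP2 and IGFBP4 points higher, with no overlap between groups.

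IGF2 is the ligand that predominates in fetal growth. The IGF2 probe at position 1147 read -5.22, -5.03 and -5.004 in the corneal samples, against -2.48, -2.50 and -2.58 in the epidermal samples. All corneal values were far below all epidermal values, and all 6 arrays were above background. The difference was -2.56 ± 0.07 (SE, n = 3 each), or 5.91-fold lower in the corneal samples, with limma's adjusted p = 2.66e-06, and was the largest among the member probes as reported. Of all tested probes, 1.11% fell by more. When the background was modelled instead with normexp, leaving out spots with an extreme local background, the same probe changed by -1.26 and was still called, which was then less than the -1.36 and -1.38 of the IGFBP5 pair.

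The second IGF2 probe, at position 583, was near the lower limit of the arrays. It read -8.51, -8.15 and -8.18 in the corneal samples, where it was above background on no array, against -6.01, -6.25 and -6.43 in the epidermal samples, where it was above background on all 3. The groups did not overlap, and the fitted difference was -2.05 ± 0.14 (SE, n = 3 each; limma, adjusted p = 1.02e-04). Since the corneal values have only an upper bound, the signal was at least 1.06-fold lower there. With normexp without the extreme spots its difference was -0.17 and it was no longer called (limma, adjusted p = 0.0532).

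IGF1, the ligand that mediates much of the action of growth hormone, had a single probe. It read -6.72, -6.88 and -7.05 in the corneal samples, above background on none, against -5.95, -5.74 and -5.92 in the epidermal samples, above background on all 3. The corneal values were all below the epidermal ones, with a fitted difference of -1.01 ± 0.10 (SE, n = 3 each; limma, adjusted p = 4.27e-04). As a bound, the signal was at least 1.36-fold lower in the corneal samples. With normexp without the extreme spots the difference was -0.03 and not called (limma, adjusted p = 0.646), so the IGF1 call rests on how the background was treated.

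Of the receptors, IGF1R, which carries the growth signal of both ligands into the cell, was called higher in the corneal samples on all 3 of its probes, by small amounts, of which that at position 46 turned sign without scaling between arrays. Its probe at position 387 read -0.02, -0.03 and -0.09 in the corneal samples, against -0.55, -0.59 and -0.37 in the epidermal samples. The groups did not overlap, and the difference was 0.45 ± 0.06 (SE, n = 3 each; limma, adjusted p = 0.00178), or 1.37-fold. That at position 5 averaged -0.49 ± 0.08 in the corneal and -0.73 ± 0.08 in the epidermal samples (SD, n = 3 each), a difference of 0.24 ± 0.06 (SE; limma, adjusted p = 0.0159). Its adjusted p was 0.0504 without corneal replicate 1 and 0.0506 without epidermal replicate 3.

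The third IGF1R probe, at position 46, had the smallest called difference of the members, 0.15 ± 0.05 (SE, n = 3 each; limma, adjusted p = 0.0476). It averaged -2.91 ± 0.08 in the corneal and -3.06 ± 0.05 in the epidermal samples (SD, n = 3 each). The call was lost when any array but corneal replicate 1 was left out, with adjusted p between 0.0562 and 0.134, and with no scaling between arrays the difference was -0.01 (limma, adjusted p = 0.905). Without scaling the median of all tested probes was itself -0.22, against -0.05 with the 75th percentile. Relative to that median, the IGF1R differences without scaling were 0.29, 0.50 and 0.20 for the probes at positions 5, 387 and 46, and those at positions 5 and 46 were not called against 0.

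IGF2R, the scavenger of IGF2, was called lower in the corneal samples by its pair of overlapping probes. The member of the pair at position 455 read -3.10, -2.98 and -3.02 in the corneal samples, against -2.73, -2.70 and -2.67 in the epidermal samples. The groups did not overlap, and the difference was -0.33 ± 0.04 (SE, n = 3 each; limma, adjusted p = 0.00115), or 1.26-fold lower; its partner at position 456 differed by -0.27 ± 0.04 (SE; limma, adjusted p = 0.00298). A separate IGF2R probe at position 3660 read -4.73, -4.84 and -4.53 in the corneal samples, against -4.67, -4.49 and -4.28 in the epidermal samples. Its groups overlapped, and its difference of -0.22 had a 95% interval of -0.52 to 0.09 (limma, adjusted p = 0.181).

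Among the binding proteins, IGFBP2 had the largest rise. IGFBP2 favours IGF2 as ligand and carries a motif that binds integrins. Its probe at position 1308 read -2.70, -2.59 and -2.64 in the corneal samples, against -4.11, -4.09 and -4.34 in the epidermal samples. All corneal values were above all epidermal ones, and the difference was 1.54 ± 0.08 (SE, n = 3 each; limma, adjusted p = 2.91e-05), or 2.90-fold higher. The overlapping probe at position 1307 differed by 1.53 ± 0.07 (SE, n = 3 each; limma, adjusted p = 2.10e-05). With normexp without the extreme spots the pair differed by 0.91 and 0.95, and both stayed called. With normexp over all spots, under which 3.63% of all tested probes were called, the pair differed by 0.13 and 0.17. Neither probe was then called (limma, adjusted p = 0.910 and 0.870).

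IGFBP4, which in most settings holds IGFs away from their receptor, was measured with the least scatter of the members at 2-fold or more. Its probe at position 1769 read 4.07, 4.05 and 4.06 in the corneal samples, against 2.98, 3.06 and 3.02 in the epidermal samples. The corneal values were all higher, by 1.04 ± 0.03 (SE, n = 3 each; limma, adjusted p = 5.19e-06), or 2.06-fold. The overlapping probe at position 1768 differed by 1.02 ± 0.03 (SE, n = 3 each; limma, adjusted p = 5.47e-06). The rise was nearly the same size, 1.03 and 1.01, with normexp without the extreme spots.

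IGFBP5, a matrix-associated binding protein made largely by mesenchymal cells, differed the other way. The probe at position 306 read -3.29, -3.13 and -3.17 in the corneal samples, against -1.31, -1.37 and -1.33 in the epidermal samples. The groups were wide apart, with a difference of -1.86 ± 0.05 (SE, n = 3 each; limma, adjusted p = 2.99e-06), or 3.62-fold lower in the corneal samples. The overlapping probe at position 305 differed by -1.92 ± 0.05 (SE, n = 3 each; limma, adjusted p = 3.29e-06). These were the only member probes still called lower with normexp over all spots, an alternative under which 3.63% of all tested probes and no member probe in the other direction were called. Of the 9 mesenchymal markers given above, 6 were also called lower in the corneal samples, against 33.4% of all tested probes. COL3A1, FBLN2 and POSTN were lower by more than IGFBP5, and the part of these markers in the IGFBP5 difference was not tested.

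IGFBP3, the main carrier of IGFs in blood, was called higher in the corneal samples on all 3 of its probes, which lie on separate stretches. The probe at position 1278 read 6.53, 6.47 and 6.49 in the corneal samples, against 6.03, 6.22 and 6.14 in the epidermal samples. The groups did not overlap, and the difference was 0.36 ± 0.05 (SE, n = 3 each; limma, adjusted p = 0.00222), or 1.29-fold. The probes at positions 1141 and 300 differed by 0.34 ± 0.06 and 0.32 ± 0.03 (SE, n = 3 each; limma, adjusted p = 0.00477 and 2.50e-04), so 3 stretches that range from 41.7% to 75% G and C gave differences of like size. Without scaling between arrays the probe at position 300 differed by 0.15 and was not called (limma, adjusted p = 0.121).

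IGFBP6, a binding protein with a marked preference for IGF2, had a small and tightly measured difference. The probe at position 825 read 4.68, 4.64 and 4.65 in the corneal samples, against 4.37, 4.37 and 4.35 in the epidermal samples. The corneal values were all higher, by 0.29 ± 0.03 (SE, n = 3 each; limma, adjusted p = 3.43e-04), or 1.22-fold, and the overlapping probe at position 824 also differed by 0.29 ± 0.03 (SE; limma, adjusted p = 6.91e-04). Without scaling between arrays both differed by 0.13 and neither was called (limma, adjusted p = 0.182 and 0.224), while relative to the median of all probes the difference was then 0.34.

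IGFBP1, a binding protein made mainly in the liver, was not tested. Its probe at position 369 read -7.74, -7.86 and -7.46 in the corneal samples, where it was above background on no array, against -6.46, -6.82 and -6.52 in the epidermal samples, where it was above background on 2. Its probe at position 1013 was above background on no array of either group. The probe at position 1012 read -8.81, -8.42 and -4.23 in the corneal samples, against -9.38, -8.88 and -8.80 in the epidermal samples. Corneal replicate 3 alone was above background there, and on the same array the partner probe, which shares 59 of its 60 bases, read -8.22. Between the probes of the other 5 pairs the values on 1 array differed by at most 0.23.

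**Figure D2:**
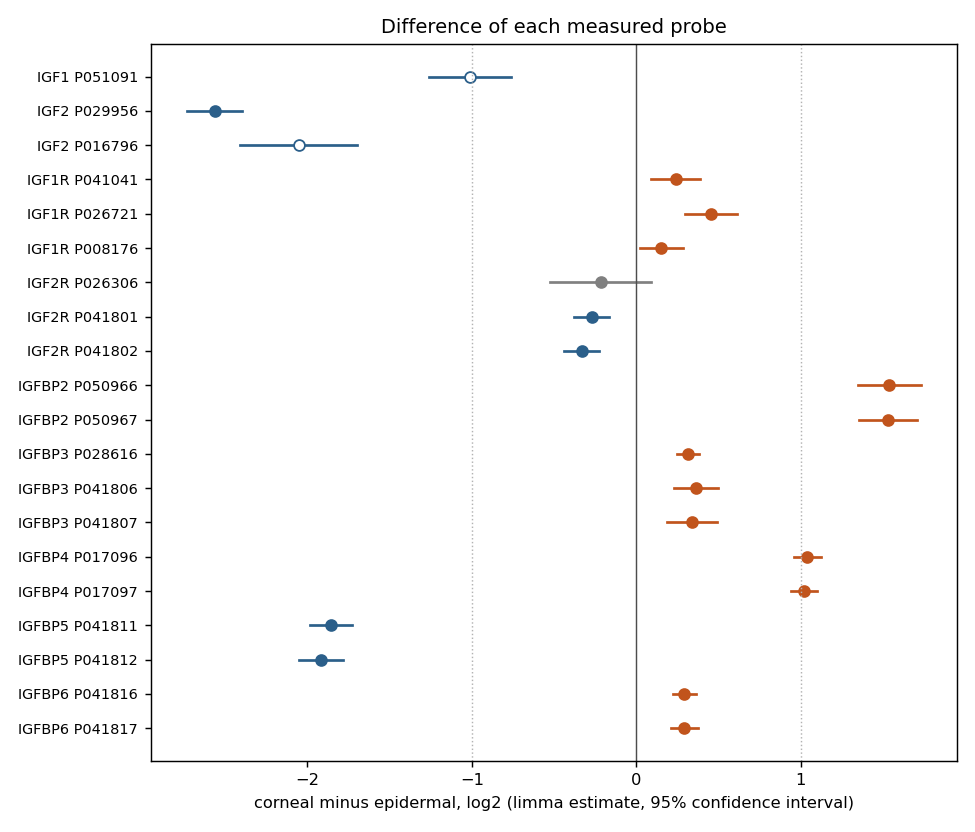
Fitted difference, corneal minus epidermal on the log2 scale (horizontal axis), of the 20 tested probes (vertical axis, gene and end of the probe name) with 95% confidence intervals; orange is called higher, blue called lower, grey not called, and open points mark probes above background on no corneal array. Dotted lines mark 2-fold. The IGF2, IGFBP5 and IGF1 probes lie at or past the lower line (the open points by a fitted change only, with bounds under 2-fold). The IGFBP2 probes lie past the upper line and the IGFBP4 probes just past it, with intervals that cross it.

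Directions of neighbouring members could be compared only for IGFBP2 and IGFBP5. In the RefSeq table of sheep genes IGFBP2 and IGFBP5 are adjacent, and IGFBP2 was higher and IGFBP5 lower in the corneal samples. IGFBP3 and IGFBP1 are also adjacent, and IGFBP3 was called higher while IGFBP1 was near background in both groups and was not tested.

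**Figure D3:**
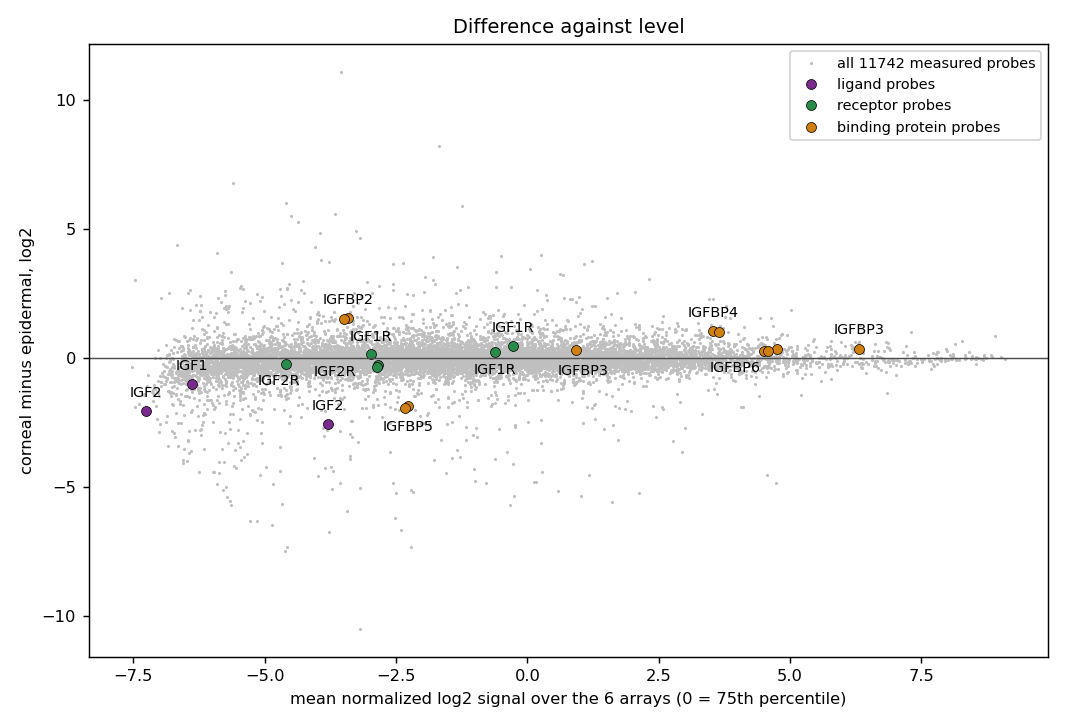
Difference, corneal minus epidermal on the log2 scale (vertical axis), against the mean normalized log2 signal over the 6 arrays (horizontal axis) for all 11742 tested probes in grey and the IGF probes in colour by role. The IGF1 probe and 1 IGF2 probe lie at the dim end, while the IGFBP2, IGFBP4 and IGFBP5 probes lie outside the dense part of the cloud at higher signal.

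The wider IGF pathway was described from 8 lists of 97 genes, of which 37 had a probe and 32 a tested one. Of these 32, 11 were called higher and 10 lower in the corneal samples and 11 were not called, a called share of 21 in 32 against 59.8% of all tested probes, with a median change of 0.05. Called differences of at least 2-fold were found in 6 of the 32, against 7.76% of all tested probes. ITGB3, not called (limma, adjusted p = 0.0662), had a fitted difference of 1.48 and is named after its value was seen.

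Proteases and modulators of binding proteins held the largest of these differences, with a median change of 0.79. Of 6 tested, 4 were called higher and 2 lower, against 26.4% and 33.4% of all tested probes. Cathepsin D (CTSD), a lysosomal protease that can cut binding proteins in acid surroundings and is sorted by mannose phosphate receptors, read 4.68, 4.67 and 4.69 in the corneal samples, against 2.46, 2.44 and 2.26 in the epidermal samples. It was higher in every corneal sample, by 2.30 ± 0.06 (SE, n = 3 each; limma, adjusted p = 2.49e-06), or 4.92-fold. The interstitial collagenase MMP1 was higher by 1.85 ± 0.04 and PAPPA, the metalloprotease known to cut IGFBP4, by 0.96 ± 0.06 (SE, n = 3 each; limma, adjusted p = 1.12e-06 and 7.88e-05). PAPPA read -3.85, -3.87 and -3.83 in the corneal samples, against -4.94, -4.79 and -4.72 in the epidermal samples, so its transcript and that of its substrate IGFBP4 were both higher in the corneal samples. The remaining one, the plasminogen activator PLAT, was named after its value of 0.62 was seen. The gelatinase MMP2 and the urokinase PLAU were lower by fitted changes of -0.43 and -0.60 (limma, adjusted p = 3.33e-04 and 5.86e-05). MMP7 and MMP9 were at or near background and not tested.

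Matrix and cell surface partners of the binding proteins divided, with a median change of 0.14. Of 9 tested, 4 were called higher, 3 lower and 2 not called, against 26.4% higher and 33.4% lower over all tested probes. Fibronectin (FN1) was higher by 0.95 ± 0.03 and thrombospondin (THBS1) by 0.50 ± 0.04 (SE, n = 3 each; limma, adjusted p = 7.14e-06 and 1.71e-04). The integrin chain ITGB1, named after its value was seen, was higher by 0.14. Caveolin (CAV1), the coat protein of caveolae, fell by 1.47 on the log2 scale with a range of -2.12 to -1.42 over its 3 probes, and the endocytic receptor LRP1 by a fitted -0.46 (limma, adjusted p = 6.48e-06 and 6.37e-05). The integrin chain ITGA5 differed by -0.32 (limma, adjusted p = 0.00463), but its other probe by 0.04.

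Signalling components downstream of IGF1R differed little. Of 7 tested genes of the PI3K, AKT and mTOR list, MTOR (0.37 ± 0.03) and RPS6KB1 (0.25 ± 0.05) were higher, RPS6 (-0.20 ± 0.03) and PIK3R1 (-0.14 ± 0.04) were lower, and AKT1, AKT2 and TSC2 were not called (SE, n = 3 each), with a median of -0.04. Without scaling RPS6KB1 was not called, and PIK3R1 was not called with median centring or without corneal replicate 2 or epidermal replicate 3 (limma, adjusted p = 0.0511, 0.0674 and 0.0608). The adaptor GRB2 was lower by a fitted -0.24 ± 0.03 (SE, n = 3 each; limma, adjusted p = 0.00173) and SHC1 was not called, while the insulin receptor INSR was above background on 2 epidermal arrays and no corneal one. None of the 3 tested genes of the RAS and MAPK list and neither of the 2 of the growth hormone axis (GHR and STAT5A) was called by limma.

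Of the imprinted growth genes 3 were tested. CDKN1C, an inhibitor of the cell cycle, read -1.27, -1.26 and -1.37 in the corneal samples, against 0.45, 0.50 and 0.42 in the epidermal samples. It was lower in every corneal sample, with a difference of -1.76 ± 0.04 (SE, n = 3 each; limma, adjusted p = 2.21e-06), or 3.38-fold. NNAT was higher by 1.11 ± 0.13 and GNAS lower by a fitted -0.30 ± 0.03 (SE, n = 3 each; limma, adjusted p = 9.01e-04 and 7.07e-04). H19, the noncoding RNA that lies beside IGF2 in mammals and is expressed from the other parental copy, had 2 probes, and neither was above background on any array of either group. The genes of the IGF2 mRNA binding list had no probe under these names and are not analysed here.

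**Figure D4:**
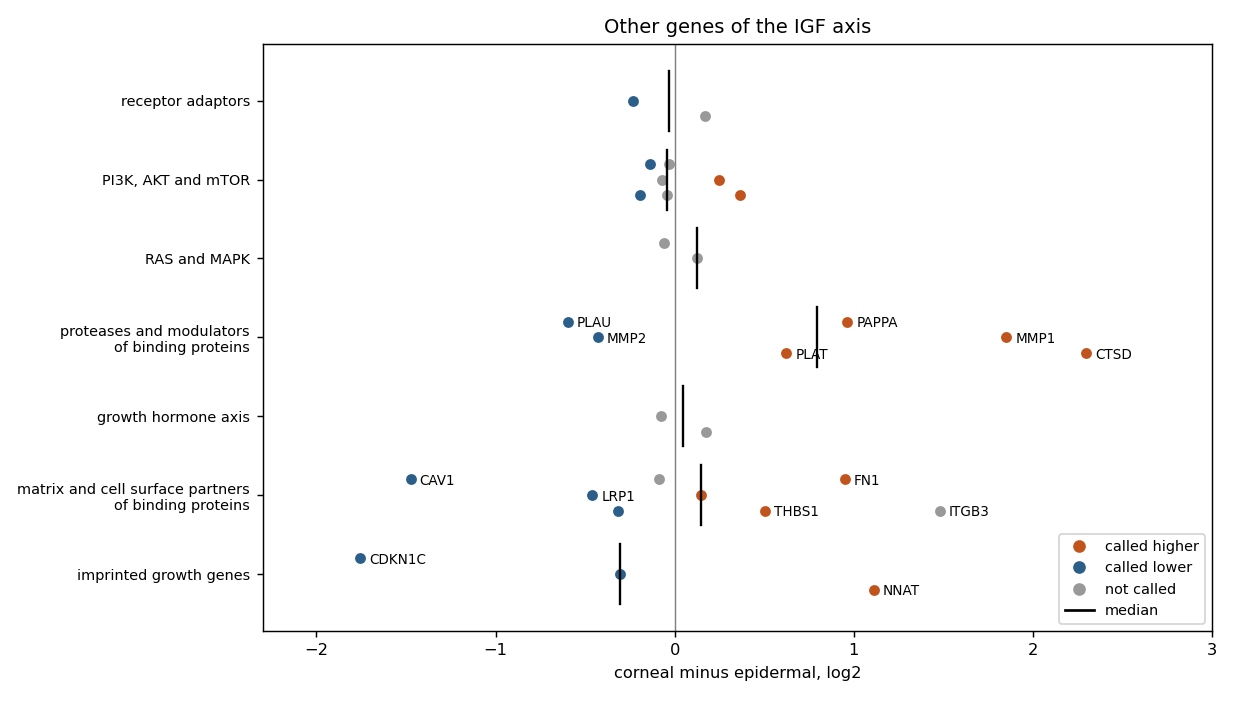
Difference, corneal minus epidermal on the log2 scale (horizontal axis), of the tested genes of each pathway list (vertical axis), 1 point per gene (2 genes are not drawn), orange called higher, blue called lower, grey not called, with a black line at the median of all tested genes of the list; genes past 0.4 in either direction are named, and the vertical spread within a list carries no value. CTSD and MMP1 lie furthest to the right and CDKN1C and CAV1 furthest to the left, while the signalling lists lie close to 0.

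For each of the members with the largest differences, the probes of named genes with the most similar profile were found by the root mean square distance over the 6 arrays, after centring on the epidermal mean, among 940 probes. IGF2 at position 1147 was closest to CXCR4, a chemokine receptor (distance 0.071 and 0.081 for its pair of probes), and ARG2, an arginase (0.074), with differences of -2.58, -2.55 and -2.48. IGFBP5 at position 306 was closest to HSD11B1, which regenerates active glucocorticoid (0.063, with a difference of -1.81), and to both probes of LOC100037663, described on the array as a glutathione transferase (0.084 each). IGFBP2 at position 1308 was closest to NPY1R, BMP4 and TLR3 (0.055, 0.072 and 0.073), which were higher in the corneal samples by 1.60, 1.52 and 1.55. IGFBP4 at position 1768 was closest to FN1, ATP1B1 and CNN1 (0.059, 0.067 and 0.069), which were higher by 0.95, 0.93 and 1.07. These distances mostly reflect a like size of difference between the 2 groups and are given as a description.

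**Figure D5:**
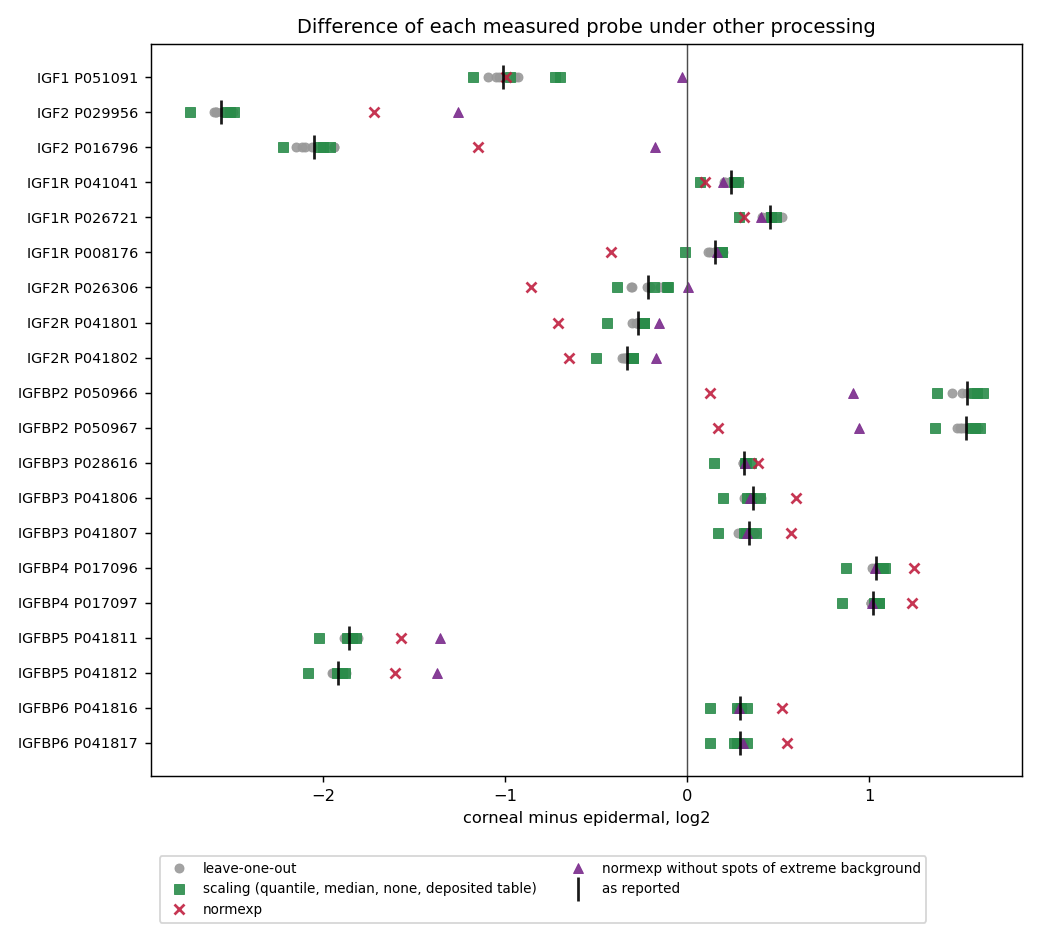
Difference, corneal minus epidermal on the log2 scale (horizontal axis), of each tested IGF probe (vertical axis) as reported (black bars), with each array left out (grey), under other scalings (green) and with normexp background, over all spots (red crosses) or without spots of extreme background (purple triangles). The IGF2, IGFBP2, IGFBP4 and IGFBP5 probes keep their sign throughout, the IGF1R probe P008176 (position 46) turns without scaling and with normexp over all spots, and the IGF2R probe P026306 (position 3660) turns with normexp without the extreme spots.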

How the data were processed

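Each sample was hybridised to 1 single-colour array. Per the submitters' processing notes, the scanned spots were read with Agilent Feature Extraction 10.7. Per the file headers, the deposited intensity values are linear, and processed signals are corrected for background and for trends across the array, with surrogates in dim spots. The deposited flags (other values, per spot) mark spots above background, saturated or outlying. A second deposited table holds log2 values of the same arrays. How the authors made it is not given in the sources used. Its columns share a median of 7.23 and quantiles to within 0.020, and it served as an alternative. Each column, regressed on log2 of the same array's processed signal, had a slope of 0.993 to 1.01 and a correlation that rounds to 0.999 or 1.00, so the scale is log2 and genes are not centred; all arrays share 1 median, and single-colour values have no direction.

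Groups came from the labels. Control spots and 19 probe values with outlier flags were left out, and log2 processed signals were centred on the 75th percentile of each array's gene spots. Of 15008 probes, the 11742 with 3 or more of 6 arrays well above background entered limma 3.58.1 under R 4.3.3 (lmFit, eBayes; Benjamini-Hochberg over all tested probes, threshold 0.05), corneal minus epidermal, with no block. Nothing in the labels says how the 3 samples of a group were derived, or whether they are separate cell lines. The p-values therefore reflect only the spread among these samples, and that spread may be technical. Where no array of a group was above background, a bound (at least N-fold) compares the brighter group's mean with a limit for the dimmer group. That limit averages, over the dimmer group's arrays, either the array's lowest well-above-background signal or the probe's own signal, whichever is higher. The adjusted p beside a bound belongs to the fitted change.

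Genes of the pathway and marker lists were named by accession (767 probes), symbol (541), synonym (19) or description (47) against the RefSeq table of sheep genes, used for names and neighbours; 13634 probes stayed unnamed. The values of 2 list genes, which count in their lists' totals and medians, are not reported here. A list gene with several tested probes is represented by that of highest mean. Every member probe is named, and of each list up to 3 called genes in each direction, largest first, above background in both groups, plus the 3 likest probes of IGF2, IGFBP2, IGFBP4 and IGFBP5. Members, lists and rules were chosen with earlier results of these data known. On simulated data with 11742 probes, 90 of 100 probes changed by 1 (log2) and 40 of 100 changed by 0.3 were called with the right sign, and 8 unchanged ones were called. No other probes were changed there, whereas 59.8% of all tested probes were called in the real data. The simulated rates therefore do not carry over to the real data.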

Additional observations from a re-analysis of the deposited data

How the results depend on the processing

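The 20 member probes were recomputed under 18 other settings, wherever a probe could be fitted, giving 347 values: 311 kept their direction and side of the threshold, 32 kept direction but lost the call, 1 gained it and 3 turned sign. For the other named genes the numbers were 512 of 535, with 19 lost and 4 turned. Some settings changed only the filter, the replicate block, the number of probes per gene or the options of eBayes. They left the fitted differences of the member probes as reported, so there only the call could change and not the direction. With normexp over all spots, 196 probes of the whole array were called higher and 230 lower, against 3100 and 3925 as reported; 0 and 2 members (against 12 and 7) and 3 and 1 pathway genes (against 11 and 10) were called, by limma. Under it the IGF1R probe at position 46 was at -0.42, RPS6 at 0.056, PAPPA at -0.42, RPS6KB1 at -0.015 and NPY1R at -0.26. Without the spots of extreme local background, normexp called 3828 and 3279 probes of the whole array and 12 members higher and 5 lower, and IGF2R at position 3660 was at 0.0041, the cause of which was not tested. With no scaling, 1534 probes were called higher over the whole array, 22.5% of the called probes against 44.1% as reported, and 7 members were called higher; the IGF1R probe at position 46 was at -0.014. With 1 probe per gene, by its construction, 5 members were called higher and 4 lower of 9, against 3016 and 3793 of 11441 probes over the whole array. Leaving out each array in turn gave 10 to 11 members higher and 7 lower, 11 to 13 pathway genes higher and 9 to 11 lower, and 2743 to 3013 probes higher and 3444 to 3750 lower over the whole array. Replicate numbers did not pair the samples (residual correlations of 0.017, -0.029 and 0.038), and with the replicate number as a block 2754 and 3520 probes, 11 and 7 members and 11 and 10 pathway genes were called; the IGF1R probe at position 46 was not called under the block (limma, adjusted p = 0.124). The signals of IGF1, IGFBP1 and the IGF2 probe at position 583 are limited by the background of the arrays. Groups of 3 arrays are too small for a test of single outlying samples.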
